A study of Mus musculus with 12 samples.

Results

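The USP genes encode ubiquitin-specific proteases, cysteine proteases that cut ubiquitin off other proteins. They were taken as every gene whose symbol is Usp with a number and an optional x, y or l, which gave 50 of the 56691 genes in the count table. Genes with longer Usp symbols were left out by this rule, such as Usp17lb (609 counts over all libraries) and Usp17lc (77). All 50 are annotated as protein-coding. They lie on 17 chromosomes, with Usp9x, Usp11, Usp26, Usp27x and Usp51 on X and Usp9y on Y. Removal of ubiquitin by a USP can spare a protein from the proteasome, edit a ubiquitin signal on a histone or receptor, or return ubiquitin to the free pool. A full-grown oocyte stops transcription before meiosis resumes, so its mRNA levels then fall by decay. In a library primed from poly(A) tails, the length of the tail can also change the level that is read.

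The study sequenced mouse oocyte RNA: 12 libraries in all, with 2 genotypes, 3 stages and 2 libraries per group. WT and Alkbh5-/- (KO) oocytes were compared at the germinal vesicle (GV) stage of prophase arrest, after germinal vesicle breakdown (GVBD), and at metaphase II (MII). Alkbh5 encodes an RNA m6A demethylase, and the study asked how its loss changes maternal RNA. Each library was made from a small pool of oocytes with ERCC RNA, a synthetic spike-in, added to each tube. All groups came from C57BL/6 females primed with PMSG, a gonadotropin, and oocytes were matured in culture in M16 medium. The KO was a deletion of the first exon of Alkbh5 in the whole animal, so follicle cells lacked the gene as well. GVBD and MII samples were taken by time in culture, and by the study's account most KO oocytes did not reach the stage by then, so genotype and stage cannot be told apart in the KO GVBD and MII libraries. The study's text gives more than 1 age for the juvenile females and more than 1 number of oocytes per tube.

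Total counts were 28557742 to 40247810 per library, and Alkbh5 had 5355 to 10181 counts in the WT libraries and 54 to 143 in the KO libraries. All 10 oocyte markers were detected in every group, with a summed level of 8689.9 to 20972 CPM (counts scaled to a common library total). The 14 cumulus and granulosa markers summed to 43.3 to 88.1 CPM and were uneven. Amh and Foxl2 had between 0 and 5 raw counts per library, while Cyp19a1 had 577 to 2225 and Nr5a2 292 to 480. Blood and immune markers (5 genes) ranged from 9.47 to 3333 CPM and differed between libraries of the same group, as in WT GV (38.9 and 3333) and KO MII (9.47 and 561). The KO MII libraries lay far apart: the USP genes together made up 0.384% of endogenous counts in replicate 1 and 0.248% in replicate 2. In the other libraries the share was 0.272% to 0.349% at GV and GVBD, and 0.488% and 0.453% at WT MII.

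In WT GV oocytes 37 of the 50 USP genes (74%) reached 1 RPKM, counts scaled to exon length in kilobases and to the library's endogenous total in the way of CPM, against 37.4% of all protein-coding genes. At 10 RPKM the shares were 9 of 50 (18%) and 12.5%. Usp46 stood at the top of the order. Its protein works with the WD40 protein WDR48 and is known from the control of glutamate receptors. Usp46 had 88.7 and 95.1 RPKM in the 2 WT GV libraries and lies on the reverse strand at chr5:73998453-74068431 (GRCm38). Usp7, whose product stabilises MDM2 and p53, was the next, at 54.9 and 52.99 RPKM. The level of Usp50 was 48.3 RPKM in replicate 1 and 12.3 in replicate 2, so it overlapped Usp15. Usp15, Usp2 and Usp4 followed with overlapping values (means of 21.6, 20.9 and 19.4 RPKM). Usp39 averaged 14.2 RPKM, Usp9x 12.5 and Usp28 10.98, and their WT GV libraries did not overlap in that order. Along the whole order 37 of 49 neighbours overlapped. Usp9y, the Y-linked copy of Usp9x, had 0 counts in all 12 libraries. In counts not scaled to exon length, which give another order, few members took up a large part of the family. Usp46, Usp7 and Usp15 together held 48.8% and 50.4% of the USP counts in the WT GV libraries and 62.8% in both WT MII libraries.

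**Figure D1:**
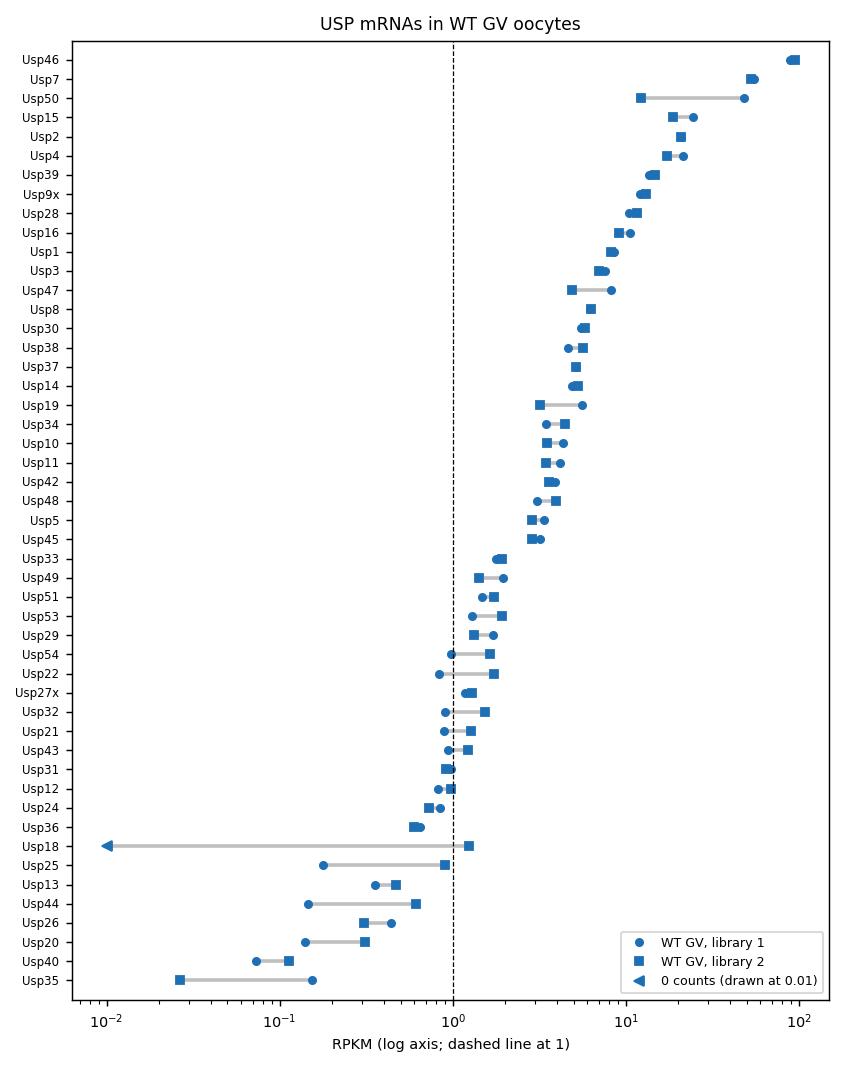
Level of each USP gene in WT GV oocytes in RPKM on a log axis, for the 49 genes with any count in these libraries. Points are the 2 libraries, grey bars join them, and an arrow marks 0 counts (Usp18 in replicate 1). Usp46 and Usp7 stand above the rest, and the libraries lie far apart for Usp50, Usp18, Usp25 and Usp35.

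Within the role lists the leading members were as follows. Among genes of genome maintenance and p53, Usp7 was followed by Usp28 over all 12 libraries (means of 61.4 and 15.4 RPKM). Among chromatin genes, Usp16 and Usp3, which act on histone H2A, led with 12.8 and 8.55 RPKM. Of the spliceosome list, Usp15 led with 22.4 RPKM, and Usp4 (15.6) and Usp39 (15.5) were close. At WT GVBD the mean of Usp39 was above that of Usp4 (22.4 and 16.7 RPKM), and their libraries overlapped. Usp14, bound to the proteasome, and Usp5, which takes apart free ubiquitin chains, had 5.43 and 2.60 RPKM. In the cell cycle list, Usp2 (30.5 RPKM) stood above Usp37 (5.64 RPKM). Usp19, an enzyme anchored in the endoplasmic reticulum, and Usp30, on the outer membrane of mitochondria, had 6.46 and 6.08 RPKM. Usp46 (111 RPKM) and Usp9x (14.6 RPKM) led the signalling list, and Usp29 (1.61 RPKM) and Usp26 (0.536 RPKM) made up the germ line list. Usp50 (17.8 RPKM) and Usp53 (1.87 RPKM) led the genes with no role stated here.

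The 3′ ends of these mRNAs bear on a library primed from poly(A) tails. Stored oocyte mRNAs carry a poly(A) signal and, in some, a cytoplasmic polyadenylation element (CPE), and both lie close to the end of the transcript. In the last 100 bases of 1 principal transcript per gene (GENCODE M21, GRCm38, transcript strand only), the CPE letters TTTTAT or TTTTAAT were found in 3 of 43 USP genes that averaged 50 counts or more at WT GV (6.98%), against 20.2% of 9970 genes. The poly(A) signal letters AATAAA or ATTAAA were found in the last 40 bases of 33 of 43 (76.7%), against 77.8%. The letters TTTTAAT can overlap AATAAA. The 3 USP genes with CPE letters were Usp7, Usp22, the histone H2B protease of the SAGA complex, and Usp28. Stretches of 30 bases are printed for these and, for comparison, for Usp46 and Usp15, abundant members with a signal and no CPE letters. Capitals mark CPE and poly(A) signal letters. The stretches lie at chr16:8690215-8690244 (reverse strand, Usp7), chr11:61151785-61151814 (reverse, Usp22), chr9:49042471-49042500 (forward, Usp28), chr5:73998735-73998764 (reverse, Usp46) and chr10:123105018-123105047 (reverse, Usp15), each in the 3′ untranslated part of the last exon.
Usp7: ctTTTTAATaaccgtctctctttgtcagct
Usp22: atcatAATAAAgctgcaTTTTATtctgaaa
Usp28: ggTTTTATaaatgtgcAATAAAagtatttg
Usp46: tctgcctaATTAAAtttctgttttctagta
Usp15: gtaatatcAATAAAtgtAATAAAcatgttt
In Usp22 and Usp28 both elements fall within 30 bases of each other. In Usp7 the CPE letters lie 97 bases from the end and no poly(A) signal letters were found in the last 40 bases. The annotated genes of Usp7 and Usp46 run past the ends of these transcripts, to chr16:8689595 and chr5:73998453. The ends of other transcripts were not read.

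From GV to MII in WT, with libraries scaled to their ERCC counts, 13 of 48 tested USP genes (27.1%) fell and none rose. Over all genes 30.5% fell and 0.393% rose. A call required a change of at least 1 on the log2 scale together with a Benjamini-Hochberg adjusted p under 0.05, taken over all genes tested with the quasi-likelihood test of edgeR. At an unadjusted p under 0.05 there were 15 USP genes (31.2%), all lower, against 39.1% of all genes, and DESeq2 called 10, all lower, where it called 29.1% of all genes lower. Both MII libraries lay below both GV libraries for 25 USP genes (52.1%), against 58.0% of all genes. The median log2 fold change was -0.57 over the USP genes and -1.06 over all genes tested. Usp35 and Usp9y did not pass the filter on low counts. In bulk pools, fewer oocytes and less RNA per oocyte cannot be told apart.

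In the spliceosome list Usp4 and Usp39 fell and Usp15 did not pass. Usp4, which acts on the splicing factor PRP3, had 7807 and 6003 spike-scaled counts (counts divided by the library's ERCC total relative to the mean ERCC total) in WT GV. In GVBD it had 4912 and 5460, and in MII 1124 and 596. All MII libraries lay far below all GV libraries, and the log2 fold change was -3.01 ± 0.51 (SE, n = 2 and 2, edgeR adjusted p = 7.38e-08). Usp39, a tri-snRNP protein without protease activity, went from 1410 and 1445 at GV through 2943 and 1365 at GVBD to 359 and 199.5 at MII. Its log2 fold change was -2.36 ± 0.53 (edgeR adjusted p = 7.50e-05). Usp15, the closest relative of Usp4, had 17122 and 12449 at GV against 19085 and 13973 at MII, with overlapping libraries and a log2 fold change of 0.16 ± 0.45 that did not pass (edgeR adjusted p = 0.848).

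In ubiquitin chain recycling Usp5 fell, and Usp13 and Usp14 did not pass. Usp5 had 660 and 533 spike-scaled counts at WT GV and 124 and 81.0 at MII, a log2 fold change of -2.55 ± 0.58 (edgeR adjusted p = 9.37e-05). Its paralog Usp13 had 115 and 144 at GV and 260.0 and 107 at MII (0.50 ± 0.63). Usp14 had 1725 and 1764 at GV and 2615 and 711 at MII (-0.07 ± 0.49), so its MII libraries spread to both sides of GV. Its exons overlap those of Thoc1 on the opposite strand, and the use of strand in the counting is not stated. Other members have such overlaps too, and not all are named here. Among them are Usp37 with Cnot9 (25507 and 100666 counts over all libraries), Usp49 with Tomm6 (3741 and 16793) and Usp30 with Alkbh2 (14741 and 3688).

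Among 9 chromatin genes 3 fell. Usp49, which acts on histone H2B, went from 708 and 485 spike-scaled counts at WT GV through 239 and 316 at GVBD to 6.38 and 16.4 at MII. Its log2 fold change of -5.66 ± 0.69 was the lowest of the family (edgeR adjusted p = 2.61e-14). The exons of Usp49 overlap those of Gm20517 on its own strand, whose raw counts went the other way, from 18 and 15 at WT GV to 283 and 274 at WT MII. With both genes summed, an alternative chosen after seeing the data, the fall was -1.70 on the log2 scale (edgeR adjusted p = 0.00921). Usp27x, a copy of Usp22 without introns in its coding part, had 212 and 220 at GV and 59.0 and 18.8 at MII (-2.48 ± 0.69). Usp3 had 2219 and 1928 at GV and 1052 and 590 at MII (-1.34 ± 0.50). Usp16 had 4245 and 3445 at GV and 5601 and 3570 at MII (0.25 ± 0.47) and did not pass. Its exons overlap those of Cct8 on the opposite strand.

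Of 9 genes of genome maintenance, Usp47 and Usp48 fell. Usp47, an enzyme of base excision repair, had 4811 and 2675 spike-scaled counts at GV and 712 and 515 at MII (-2.61 ± 0.51, edgeR adjusted p = 4.41e-06). Usp48 had 1259 and 1541 at GV and 529 and 376 at MII (-1.63 ± 0.51). Usp7 went from 18081 and 16447 at GV through 17744 and 16096 at GVBD to 23168 and 13758 at MII (0.10 ± 0.45), and Usp28 had 2569 and 2698 at GV and 3711 and 2382 at MII (0.21 ± 0.48). Neither passed, and for both genes the MII libraries enclosed the GV values.

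Of 7 tested membrane and organelle genes 3 fell. Usp30 had 1413 and 1409 spike-scaled counts at GV and 516 and 308 at MII (-1.78 ± 0.52). Usp25 had 39.2 and 189 at GV and 16.0 and 14.0 at MII (-2.92 ± 0.87), and Usp20 had 53.4 and 113 at GV and 11.96 and 20.2 at MII (-2.35 ± 0.93). The call of Usp25 was lost without WT GV replicate 2 (-1.38), the library with 3333 CPM of blood and immune markers, and without either WT MII library. Usp25 and Usp20 rest on low counts, at most 142 raw counts in any WT library. Usp19 had 1680 and 903 at GV and 2343 and 1408 at MII (0.54 ± 0.49) and did not pass.

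In the signalling list 1 of 6 tested genes, Usp18, fell, in the germ line list none of 2, and in the cell cycle list none of 3 (1 of them, Usp44, had an unadjusted p under 0.05). Usp18 removes the ubiquitin-like protein ISG15 and marks interferon-exposed cells. It had 0 and 138 spike-scaled counts at WT GV and 10.4 and 0 at MII, so the groups overlapped (-3.78 ± 1.10), and without replicate 2 of WT GV the gene did not pass the filter. The call was also lost without either WT MII library, under TMM or median-of-ratios scaling, in DESeq2, in the 12-library model and with a block for replicate number (-2.54, edgeR adjusted p = 0.599). In WT GV replicate 2 the 5 blood and immune markers summed to 3333 CPM, against 38.9 in replicate 1 and 28.0 to 49.4 at WT MII. In WT GV replicates 1 and 2 the globin genes had 141 and 37709 (Hbb-bs) and 128 and 55632 raw counts (Hba-a1). Ptprc had 143 and 247, Lyz2 309 and 613, and Cd52 went the other way, with 670 and 246. In the KO GV libraries these markers summed to 1836 to 3203 CPM and Usp18 had 22 and 8 raw counts. The part of blood or immune cell RNA in the change of Usp18 was not tested. Usp46 went from 29486 and 29813 at GV through 34336 and 28431 at GVBD to 48492 and 26265 at MII (0.33 ± 0.43). Usp9x, with 7679 and 7834 at GV and 7856 and 4019 at MII, was at -0.39 ± 0.47. Usp2, an enzyme known from cyclin D1, had 4265 and 4042 at GV and 7882 and 4436 at MII (0.57 ± 0.47) and did not pass (edgeR adjusted p = 0.407). Usp37, a cyclin A protease, was at -0.27 ± 0.48, Usp29 at 0.04 ± 0.50 and Usp26 at -0.11 ± 0.82.

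Usp50 was the member of the last list that fell, at -1.25 ± 0.48. It had 6355 and 1529 spike-scaled counts at WT GV and 1714 and 1599.5 at MII, so the groups overlapped. Without replicate 1 of WT GV its log2 fold change was 0.12. In that library Gm10774, a processed pseudogene that overlaps Usp50 on the same strand, had 6110 raw counts against 1 in replicate 2.

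The fall of Usp4 and Usp49 in WT held in all 12 alternatives run for each, leaving out each library included. The count of 13 was 4 without WT GV replicate 1, 4 without WT GV replicate 2 and 7 without WT MII replicate 2, where 14.0%, 13.6% and 13.8% of all genes were called lower. Usp20 was called in 2 of its 12 alternatives and Usp50 in 3.

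**Figure D2:**
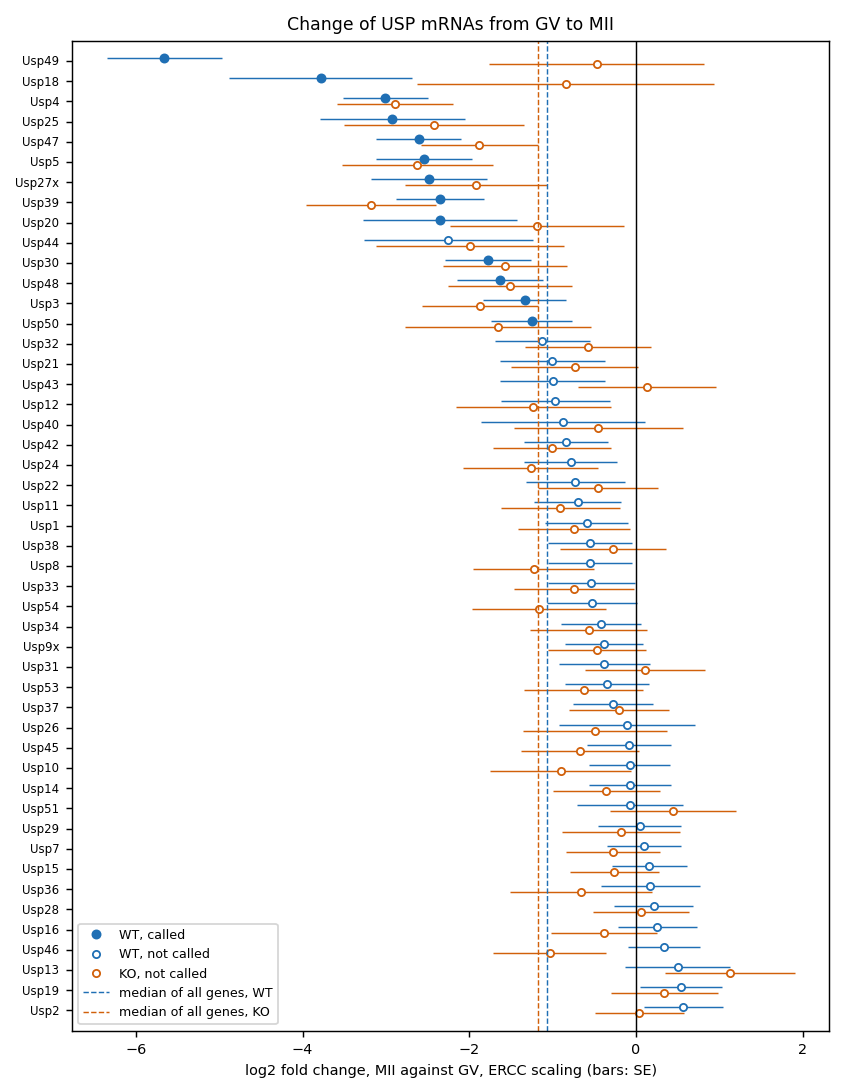
Log2 fold change from GV to MII of 48 USP genes in WT (blue) and KO (orange), ERCC scaling, with bars of 1 SE. Filled points passed the threshold and dashed lines are the medians of all genes tested (-1.06 in WT, -1.17 in KO). Usp49, Usp18 and Usp4 have the lowest WT values, and most USP points lie right of the dashed lines.

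How much of this is a fall and how much a relative rise depends on the scaling. TMM scaling, which assumes that most genes do not change, moved the median of all genes from -1.06 to -0.14 in WT. Under it 8 USP genes rose from GV to MII in WT and 6 fell, against 8.47% and 16.2% of all genes. The 8 that rose under TMM were Usp2, Usp13, Usp15, Usp16, Usp19, Usp28, Usp36 and Usp46. Usp46, for example, was at 1.22 ± 0.18 under TMM (edgeR adjusted p = 0.00766) and at 0.33 under ERCC scaling. The 6 that fell under TMM were Usp4, Usp5, Usp27x, Usp39, Usp47 and Usp49, which fell under both scalings, with Usp4 at -2.13 ± 0.25 and Usp39 at -1.46 ± 0.21 under TMM. All of the 13 genes called under ERCC scaling had values below 0 under TMM.

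**Figure D3:**
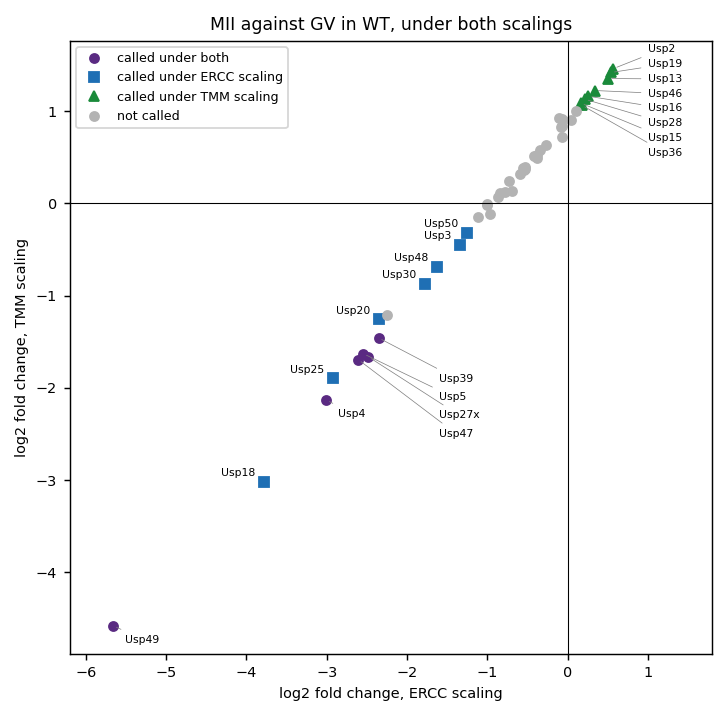
Log2 fold change from GV to MII in WT for the USP genes under ERCC scaling (x axis) and TMM scaling (y axis). Colours and shapes mark under which scaling a gene was called. The points lie on a line shifted upward by close to the difference in the all-gene medians, 6 genes were called as lower under both, and 8 were called as higher under TMM only.

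In KO oocytes 1 of 49 tested USP genes (2.04%) was called from GV to MII, as lower, with 3.28% of all genes called lower. This was Usp35, a relative of Usp38, with 63.7 and 53.6 spike-scaled counts at KO GV and 0 in both KO MII libraries. Against a floor of 3 counts per library this was at least 22.8-fold lower (edgeR adjusted p = 0.0453). At an unadjusted p under 0.05 there were 8 USP genes (16.3%), all lower, against 24.6% of all genes. Both KO MII libraries lay below both KO GV libraries for 24 USP genes (49.0%), against 61.4% of all genes. The USP median was -0.74, also with Usp35 at its bound, and that of all genes was -1.17. Usp4 had 10125 and 10204 at KO GV and 2101 and 637 at KO MII (-2.89 ± 0.70, edgeR adjusted p = 0.0506), and Usp39 had 2649 and 2187 at GV and 413 and 120.3 at MII (-3.18 ± 0.78, edgeR adjusted p = 0.0526). Both just missed the threshold. Under TMM scaling Usp4 (-1.97) and Usp39 (-2.25) fell and Usp13 (2.26) and Usp19 (1.44) rose in KO. Of all genes 3.87% fell and 1.19% rose under that scaling.

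The KO MII libraries lay apart for abundant members too, and the KO count moved with single libraries. Usp46 had 34900 spike-scaled counts in replicate 1 and 6954 in replicate 2, Usp7 had 21594 and 9149, and Usp15 had 14345 and 9023. Without KO MII replicate 1 the count was 33 lower (53.9% of all genes were then called lower), and without replicate 2 it was 6 (16.5% of all genes): Usp3, Usp4, Usp5, Usp35, Usp39 and Usp47. Without KO GV replicate 1 or 2 it was 0 (0.196% and 0.265% of all genes).

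The WT and KO stage comparisons share no library. All 13 USP genes called lower in WT had values below 0 in KO, and 11 of the 13 (84.6%) had KO MII libraries below both KO GV libraries. The exceptions were Usp18 and Usp49. Among all 5511 genes called lower in WT and tested in KO these shares were 98.6% and 90.2%. The genotypes were also tested for unequal change between GV and MII by the edgeR interaction term. It called 0 of 49 USP genes and 0.00% of all genes, DESeq2 called 0 USP genes and 0.740% of all genes, and 2 USP genes (4.08%) had an unadjusted p under 0.05, against 5.75% of all genes. These were Usp49 (5.196 ± 1.77) and Usp35 (-6.05 ± 2.36), followed by Usp46 (-1.37 ± 0.87). The KO MII libraries of Usp49 had 626 and 8.60 spike-scaled counts, so its value rests on 1 library. With Usp49 and Usp50 summed with the overlapping genes of their strand, chosen after seeing the data, 1 USP gene had an unadjusted p under 0.05. The value of Usp35 rests on zero counts and depends on the prior count of the fit.

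From GV to GVBD none of 49 tested USP genes was called in WT and none of 48 in KO, by edgeR or DESeq2. Of all genes edgeR called 0.0511% and 0.220%, and DESeq2 1.96% and 1.22%. At an unadjusted p under 0.05 there were 2 USP genes in each genotype (4.08% in WT and 4.17% in KO), against 6.25% and 7.65% of all genes: Usp50 (-1.66) and Usp49 (-1.10) in WT, and Usp25 (-2.55) and Usp13 (1.16) in KO, named after their values were seen. Usp18 and Usp9y did not pass the filter in KO. The median was -0.04 in WT and 0.01 in KO.

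**Figure D4:**
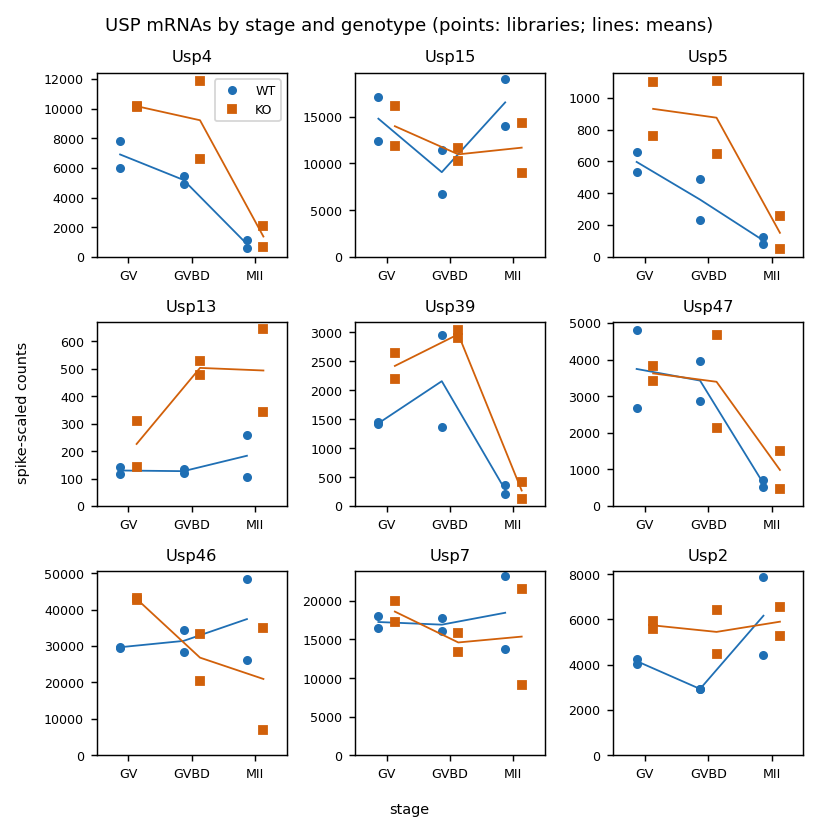
Spike-scaled counts of 9 USP genes at GV, GVBD and MII in WT (blue circles) and KO (orange squares); points are libraries and lines join means. Usp4, Usp5, Usp39 and Usp47 are low at MII in both genotypes, while Usp15, Usp7 and Usp2 do not fall from GV to MII in WT and the MII libraries of Usp46 lie far apart in both genotypes.

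Some close relatives within the family differed in level at WT GV or in whether they were called from GV to MII. Usp46 had 102 times the RPKM of its paralog Usp12 at WT GV (91.9 and 0.901 RPKM), although both proteins use WDR48. Usp4 and Usp15 stood at like levels at GV (19.4 and 21.6 RPKM), and at MII Usp4 was called lower while Usp15 was not under ERCC scaling and rose under TMM. Usp11, the third of that branch, had 3.82 RPKM and a WT log2 fold change of -0.70. Usp5 had 7.53 times the RPKM of Usp13, and Usp28 had 20.2 times that of Usp25. Usp20 and Usp25 were called lower in WT, and their relatives Usp33 (-0.54) and Usp28 were not. The calls of Usp20 and Usp25 rest on low counts and held in 2 and 6 of 12 alternatives. Usp27x was called lower, and Usp22 (-0.73) and Usp51 (-0.07), the other genes of that branch, were not. The difference between relatives was not itself tested.

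Other pairs had 1 member well above the other at WT GV without a call in WT for either under ERCC scaling. Usp2 stood 19.3 times above Usp21, Usp38 57.5 times above Usp35 (which did not pass the filter in WT), Usp42 6.02 times above Usp36, Usp29 4.08 times above Usp26, and Usp16 3.25 times above Usp45. Usp49, which fell in WT, stood 4.43 times above Usp44, the spindle checkpoint protease that acts on CDC20, whose WT change was -2.25 ± 1.01 without passing (edgeR adjusted p = 0.0754). Usp53 and Usp54 (1.61 and 1.31 RPKM) and Usp31 and Usp43 (0.942 and 1.08 RPKM) were close to each other, and none was called. Usp9x had 12.5 RPKM and Usp9y none.

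The loss of Alkbh5 was tested at each stage. At GV none of 49 USP genes was called by edgeR, with 0.0977% of all genes called. At an unadjusted p under 0.05 there were 10 (20.4%), all higher in KO, against 17.9% of all genes in either direction, and DESeq2 called 2 (Usp11 and Usp27x) where it called 3.42% of all genes. The median was 0.45 over USP genes and 0.36 over all genes under ERCC scaling, and 0.09 and 0.00 under TMM. Both KO libraries lay above both WT libraries for 25 genes (51.0%, against 42.2% of all genes) and below for 0 (against 9.69%). The lowest p-values were those of Usp11, Usp38 (0.92 ± 0.21, edgeR adjusted p = 0.1595) and Usp3 (0.76 ± 0.19, edgeR adjusted p = 0.171).

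Usp11, a deubiquitinase of BRCA2-dependent DNA repair on the X chromosome (chrX:20703906-20720539, forward strand), was the member most often called between genotypes. Its spike-scaled counts at GV were 836 and 656 in WT and 2367 and 2341 in KO. For GVBD they were 625 and 769.5 in WT and 3249 and 2344 in KO. In MII the WT libraries had 656 and 264 and the KO libraries 1986 and 526. The genotypes did not overlap at GV or GVBD and overlapped at MII. As KO against WT, its log2 fold change was 1.66 ± 0.22 at GV (edgeR adjusted p = 0.0770), 2.00 ± 0.53 at GVBD (edgeR adjusted p = 0.0461) and 1.45 ± 0.86 at MII (edgeR adjusted p = 0.873). In a fit of all 12 libraries with stage as a term it was 1.70 ± 0.33 (n = 6 and 6, edgeR adjusted p = 0.0254). Usp11 was the 1 of 49 USP genes called in that fit, where 0.900% of all genes were called higher, and 12 USP genes (24.5%) had an unadjusted p under 0.05, all higher, against 18.8% of all genes. The median was 0.37 over the USP genes and 0.29 over all genes. Under TMM scaling Usp11 was at 1.38 ± 0.21 (edgeR adjusted p = 0.00475), with 1.15% of all genes called higher and the median of all genes at 0.02.

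The call of Usp11 over all stages was lost without any of 8 single libraries: WT GV 2, both WT GVBD, WT MII 2, both KO GV, KO GVBD 1 or KO MII 1. Its value stayed between 1.36 and 1.93 in all 20 alternatives, with adjusted p-values from 1.82e-05 to 0.0796. The call at GVBD was lost without any 1 of the 4 libraries, with values of 1.75 to 2.22. At GV Usp11 was called without WT GV replicate 1 or without replicate 2.

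Usp13 and Usp38 came closest after Usp11 over all stages. Usp13 was at 1.41 ± 0.35 (edgeR adjusted p = 0.0685) and passed under TMM scaling at 1.16 ± 0.27 (edgeR adjusted p = 0.0328). At GVBD it had 135 and 119 spike-scaled counts in WT and 479 and 529 in KO. Usp38 was at 1.10 ± 0.29 (edgeR adjusted p = 0.0750). Its counts were 1135 and 1303 in WT and 2562 and 2050.1 in KO at GV, 2219 and 762 against 3636 and 3148 at GVBD, and 977 and 687 against 2655 and 1158 at MII. Usp38 was 1 of 3 USP genes (6.12%), with Usp21 and Usp51, for which both KO libraries lay above both WT libraries at every stage, against 5.39% of all genes.

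**Figure D5:**
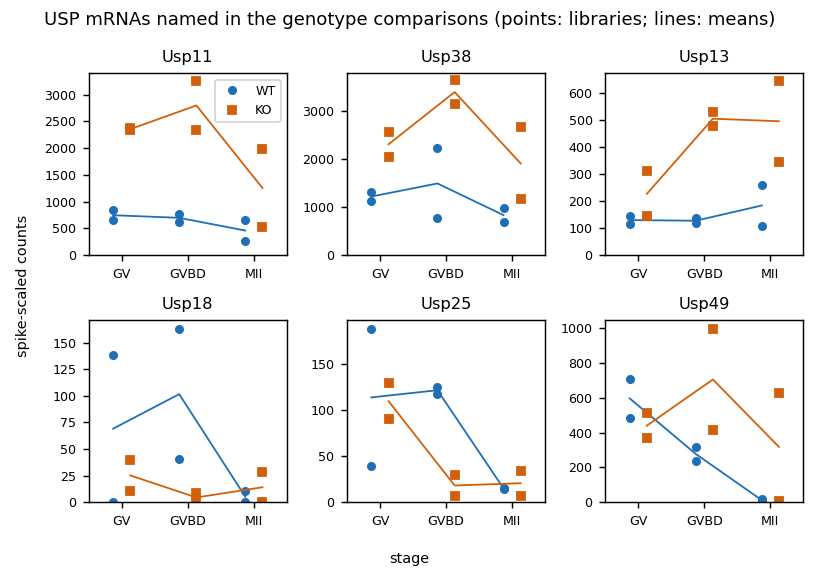
Spike-scaled counts of the USP genes named in the genotype comparisons, by stage, in WT (blue circles) and KO (orange squares); points are libraries and lines join means. Usp11 and Usp38 are higher in KO at GV and GVBD, Usp18 and Usp25 are low in both KO GVBD libraries, and Usp49 at KO MII has 1 library at 626 and 1 at 8.60.

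At GVBD 2 of 49 USP genes were called, Usp11 higher and Usp18 lower, where 0.807% of all genes were higher and 1.73% lower. Neither was called under TMM scaling, which called 0.0103% of all genes higher and 0.139% lower and moved the median of all genes from 0.23 to -0.04. Usp18 had 40.2 and 163 spike-scaled counts in WT and 0 and 8.81 in KO (-4.37 ± 1.11, edgeR adjusted p = 0.0377). Usp25 moved the same way, with 118 and 126 in WT and 6.58 and 29.7 in KO (-2.71 ± 0.82), and did not pass (edgeR adjusted p = 0.0847). The 5 blood and immune markers were also lower in KO at this stage, at 9.72 and 21.4 CPM summed, against 1807 and 2055 in WT, and all 5 were above 0. The leukocyte marker Ptprc had 421 and 348 raw counts in WT GVBD and 8 and 51 in KO GVBD. The part of blood or immune cell RNA in the fall of Usp18 and Usp25 was not tested. The call of Usp18 was lost without WT GVBD 1, WT GVBD 2 or KO GVBD 1 (values of -5.05, -3.08 and -3.51). Both KO libraries lay above both WT libraries for 20 USP genes (40.8%, against 30.3% of all genes) and below for 4 (8.16%, against 17.9%).

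At MII 1 of 48 USP genes was called, Usp49, as higher in KO, with 0.501% of all genes called higher and 0.302% lower. Usp49 had 6.38 and 16.4 spike-scaled counts in WT and 626 and 8.60 in KO, so the groups overlapped (4.77 ± 1.15, edgeR adjusted p = 0.00751). Without KO MII replicate 1 the value was -0.41. The call was also lost without WT MII replicate 1 (4.27) or 2 (5.61). With the counts of Gm20517 added, a sum chosen after seeing the data, it was 1.12 ± 0.92 and did not pass. It was not called under TMM scaling either (3.87, with 0.131% of all genes higher and 0.114% lower, and the median of all genes moved from 0.30 to 0.00). Gm20517 had 26 raw counts in KO MII replicate 1 and 235 in replicate 2, the reverse of Usp49 (626 and 12). Usp35 and Usp9y did not pass the filter. For 6 USP genes (12.5%) both KO libraries lay above both WT libraries, against 22.1% of all genes, and for 1 (2.08%) below, against 10.3%.

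Genes that act beside the USP family were given by lists of other deubiquitinase classes, cofactors and ubiquitin genes. From GV to MII in WT, 4 of 14 tested OTU genes fell, led by Otub1 (-3.43), Otulin (-3.39) and Otub2 (-2.77). Of 8 JAMM metalloproteases 5 fell, led by Eif3h (-3.66), Mpnd (-2.68) and Psmd14 (-2.35), the deubiquitinase of the proteasome lid. Of 8 Josephin, MINDY and ZUFSP genes 3 fell: Mindy4 (-5.50), Josd2 (-4.45) and Josd1 (-1.37). The ubiquitin-ribosomal fusion gene Rps27a (-6.37) and Ubb (-3.18) were among the ubiquitin and E1 genes that fell. Of 16 USP cofactors 2 fell, Sart3 (-1.83), which brings Usp4 and Usp15 to the spliceosome, and Grb2 (-1.59). None of the 4 other genes with a USP name or fold that were placed in these lists (Cyld, Uspl1, Pan2 and Usp6nl) was called. No gene of these lists rose, and 30.5% of all genes fell. In KO, Otulin (-4.61), Eif3h (-3.58), Mindy4 (-3.90), Rps27a (-4.87) and Ubb (-2.51) fell, with 3.28% of all genes called lower. No gene of the lists was called between genotypes. Of all genes 0.0977% were called at GV, 0.807% as higher and 1.73% as lower at GVBD, and 0.501% and 0.302% at MII.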

How the data were processed

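The authors deposited 1 table of raw read counts by gene and library, with ERCC sequences listed beside the genes. Per the study's methods reads were trimmed with Cutadapt and aligned with Hisat2 to GRCm38 joined to ERCC sequences, and uniquely mapped reads were kept. The methods name StringTie and FPKM for quantification, and the step that made the deposited counts, the use of strand and the annotation release are not given in the sources used here. The extraction protocol in the labels (bulk RNA) differs from the methods (SMART-seq). Counts without molecular identifiers are not independent molecules, and nothing in the labels says whether replicates came from separate animals, although the study calls them biological, so p-values measure the spread between these libraries.

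Each comparison was fitted with edgeR 4.0.16 (glmQLFit, glmQLFTest, R 4.3.3) on the libraries it names, over all genes kept by filterByExpr, with library sizes in proportion to summed ERCC counts (221927 to 838409 per library). Calls needed a Benjamini-Hochberg adjusted p under 0.05 and an absolute log2 fold change of at least 1, two-sided. Standard errors were the log2 fold change over the square root of F. RPKM used union exon lengths. Of 56691 genes 91.9% matched a symbol, and 5 older symbols in the lists matched none. Scripts were tested on simulated data with log2 fold changes of 1, 2 and 4. The changed genes were drawn from those with a mean count at or above the median, so the shares do not cover genes with low counts. For KO against WT at MII 0%, 10.3% and 82.9% of the changed genes were called. Over all stages these shares were 7.35%, 79.7% and 98.5%, and for MII against GV in WT 7.81%, 56.5% and 95.5%.

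The USP genes and all lists were chosen with earlier results of these data known. Named are the 2 members with the highest mean RPKM in each role list, up to 5 called members with the lowest and highest change per comparison, the 3 lowest p-values where a genotype comparison had no call, both genes of each paralog pair, and genes failing the filter. Further called genes and genes near the threshold were named after their values were seen. Alternatives were TMM and median-of-ratios scaling, DESeq2 1.42.0 (Wald test on ERCC size factors), no fold minimum, no filter, all 12 libraries in 1 model, a block for replicate number and omission of each library in turn. Summing Usp49 and Usp50 with overlapping genes and crossed replicate numbers were added after seeing the data. The count over the ubiquitin and E1 list is not reported here.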

Additional observations from a re-analysis of the deposited data

How the results depend on the processing

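Of 122 recomputed counts of called USP genes 69 stayed within 1.5 times the reported count, and so did every count with no fold minimum. Of 511 recomputed gene values 343 kept their direction and their side of the threshold, 90 were no longer called, 49 became called and 29 changed sign; causes were not tested. For KO against WT at GV (0 reported), DESeq2 called 2 and no filter 1. Of all genes they called 666 of 19452 and 666 of 29351. At GVBD (2 reported), TMM, median-of-ratios scaling and the 12-library model each called 0. At MII (1 reported), those 3 settings and the sum with overlapping genes each called 0. For MII against GV the 12-library model called 5 in WT (13 reported), with 3839 of 22004 genes called. In KO (1 reported) TMM, median-of-ratios scaling and no filter called 4 each, and DESeq2 and the 12-library model 6 each. Of all genes these settings called 951 and 905 of 18777, 2659 of 28535, 3068 of 18777 and 2933 of 22004, in that order. No filter called 1 for GVBD against GV in WT and 1 for the genotype difference (0 reported for both), with 528 of 29407 and 346 of 31156 genes called. Over all stages (1 reported) TMM and median-of-ratios called 2 each, and DESeq2 and no filter 4 each. Of all genes these settings called 600, 609 and 1356 of 22004, and 1181 of 33089, in that order.

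Leaving out 1 library gave 0 to 1 calls for KO against WT at GV, 0 to 2 at GVBD, 0 to 1 at MII and 0 to 4 over all stages. It gave 4 to 11 for MII against GV in WT, 0 to 33 in KO, 0 to 1 for GVBD against GV in WT, 0 to 3 in KO and 0 to 1 for the genotype difference. The highest counts came without WT GV 1 or 2 (GV), KO MII 2 (all stages and the genotype difference), WT MII 1 and KO MII 1 (MII against GV in WT and KO), WT GV 2 and KO GVBD 2 (GVBD against GV in WT and KO). Where 1 library is left in a group, it is assumed to vary like the other group.

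Libraries with the same number shared no deviation across all pairs of groups. Over 13273 genes the correlation of their deviations between genotypes was -0.22, 0.14 and -0.19 at GV, GVBD and MII. It was 0.02 and 0.05 between GV and MII in WT and KO, and 0.08 and -0.05 between GV and GVBD. Among the further pairs of groups in the 12-library fit it ran from -0.22 (KO GVBD with KO MII) to 0.24 (WT MII with KO GVBD). The numbers were therefore not taken to pair libraries. With a replicate block KO against WT gave 0 calls at each stage. The counts were 10 and 4 for MII against GV in WT and KO, 0 and 0 for GVBD against GV, 0 for the genotype difference and 3 over all stages. Of all genes the block called 4973 of 18816 and 2462 of 18777 for MII against GV in WT and KO, and 673 of 22004 over all stages. With crossed numbers, chosen after seeing the data, 1 gene was called at GV and 0 at MII. Under the block Usp29 was at -0.023 in WT from GV to MII.

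The other sign changes were all in changes from GV to MII that had not passed, apart from Usp49 and Usp50. TMM and median-of-ratios scaling gave 0.72 and 0.76 for Usp14 in WT, 0.92 and 0.97 for Usp26, 0.64 and 0.68 for Usp37, 0.58 and 0.62 for Usp53, and 0.50 and 0.54 for Usp9x. Leaving out 1 library gave log2 fold changes from GV to MII in WT of -0.33 to 0.42 for Usp7, -0.95 to 0.018 for Usp9x, -0.28 to 1.01 for Usp13, -1.30 to 0.58 for Usp14, -0.082 to 0.41 for Usp15, -0.11 to 0.54 for Usp16. It gave -0.39 to 0.22 for Usp26, -0.14 to 0.50 for Usp28, -0.55 to 0.46 for Usp29, -0.29 to 0.53 for Usp36, -0.65 to 0.022 for Usp37, -0.17 to 0.71 for Usp46, and -1.94 to 0.12 for Usp50. In KO it gave -0.21 to 0.74 for Usp19. For KO against WT at MII it gave -0.41 to 5.74 for Usp49.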
